A study of Mus musculus with 48 samples.

Results

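The liver-expressed members of the Zfp series of zinc finger genes were described across 48 hourly circadian time points. A member is a gene whose symbol on the array annotation is Zfp followed by a number and nothing else, and members were chosen by the mean of the 48 linear intensities of their brightest probe set, which had to be 500 or more. Of 305 such genes, read by 575 probe sets, 193 lay under that mean, 1 was left out of the description and 111 were members, out of 18194 genes with a single symbol on the array. All samples came from the liver of wild-type male C57BL/6J mice, entrained to 12 h of light and 12 h of darkness and then kept in constant darkness, so that every pool shared this treatment and there was no untreated or mutant group. Each pool held liver RNA of several young mice killed in the dark and was read on 1 array, from circadian time 18 (CT18) to CT65. CT0 to CT12 is the subjective day and CT12 to CT24 the subjective night. With 1 array per hour, the spread between mice at a given hour is unknown, and every test below measures a rhythm against the scatter of hours around a curve.

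Zinc finger proteins of the C2H2 type fold around zinc through paired cysteines and histidines, and arrays of such fingers bind DNA in a sequence-specific way. Many Zfp genes encode KRAB zinc finger proteins, which recruit TRIM28 and, through it, the histone methyltransferase SETDB1 and HP1 proteins to silence retroelements and imprinted loci. The family grew by tandem duplication, so many members sit beside a close relative in the genome, and several proteins that carry the name bind RNA, ribosomes or ubiquitin pathway partners instead.

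The defining hepatocyte genes of the marker list, Alb, Apoa1, Ttr, Fgb, Cyp2e1 and Serpina1c, had mean intensities from 465403 to 838203, whereas all 4 bile duct markers stayed at or under 313 and the 4 measured lymphocyte markers had a median of 169, with Cd3d lowest at 55.7 and Ptprc, which other blood cells also express, highest at 2221. Kupffer, stellate and endothelial markers had medians of 7357, 8679 and 1604. The lowest marker of each list was Marco (360), Des (91.8) and Cdh5 (274). The pools were whole liver, in which a smaller number of cells of a type and less RNA per cell cannot be told apart. The last 6 pools, CT60 to CT65, stood apart from the others by a lower upper range, with the 75th percentile of an array between 797 and 945 against 891 to 1099 in CT18 to CT59. Counts of members with a component are given with and without those pools, and calls lost without them are named for several members.

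The members were mostly of modest level. Their means ran from 505 to 26256 with a median of 1238, against a median of 3514 over the 7902 genes with a mean of 500 or more. There were 43 members under 1000, 27 between 1000 and 2000, 36 from 2000 up to the level of the 5 brightest. The 3 members just inside the limit were Zfp53 (505), Zfp128 (521) and Zfp46 (521), and the 3 genes just outside it were Zfp846 (494), Zfp1 (493) and Zfp276 (491). The brightest member was Zfp445, a KRAB protein that maintains genomic imprints, which ranged from 18886 at CT30 through a median of 26014 to 33821 at CT37. Next came Zfp91, an atypical ubiquitin ligase of the NF-κB pathway, with a mean of 15695, Zfp622, a factor of large ribosomal subunit maturation, with 13555, Zfp871 with 12651, Zfp207, a spindle and kinetochore protein, with 12189, and Zfp148, a regulator that binds GC-rich promoters, with 7450. These 6 values compare probe sets and not transcript numbers, since probes differ in brightness.

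Sequence upstream of the start was available for 93 members in RefSeq (GRCm38.p6), and the 250 bases before each start were searched on both strands for motifs read by clock-linked factors. The E-box CACGTG, bound by CLOCK and BMAL1, was present in 10 of the 93 (10.8%), against 10.4% of 6499 genes with a mean of 500 or more and 6.86% of all 27025 genes with such a sequence. The stretches below are printed because 4 of these 10 genes form 2 divergent pairs with nearly the same promoter, and because Zfp871 is a bright member with both a 24 h and a 12 h component. Capitals mark the E-box.
Zfp943 (chr17:21962483-21962548, plus strand): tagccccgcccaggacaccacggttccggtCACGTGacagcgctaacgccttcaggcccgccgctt
Zfp942 (chr17:21962483-21962548, minus strand): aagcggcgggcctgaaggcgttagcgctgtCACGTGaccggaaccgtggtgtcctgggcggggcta
Zfp758 (chr17:22361394-22361459, plus strand): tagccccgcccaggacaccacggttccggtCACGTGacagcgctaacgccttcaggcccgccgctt
Zfp944 (chr17:22361401-22361459, minus strand): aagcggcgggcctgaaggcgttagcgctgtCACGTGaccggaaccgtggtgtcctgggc
Zfp871 (chr17:32788341-32788406, minus strand): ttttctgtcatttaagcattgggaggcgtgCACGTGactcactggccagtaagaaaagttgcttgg

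Zfp943 and Zfp942 start on opposite strands around the same 66 bases, and Zfp758 and Zfp944 do so at a second place on chromosome 17. The 66 bases printed for Zfp758 matched those of Zfp943 at 66 of 66 positions, whereas those of Zfp871 matched Zfp943 at 19. The cAMP response element TGACGTCA, read by CREB and ATF factors, was found in 3 members (3.23%), against 3.09% of the 6499 genes and 1.77% of all. The holders are shown with the element in capitals, since Zfp266 had a 12 h rhythm and Zfp367 and Zfp523 had 24 h rhythms.
Zfp266 (chr9:20521420-20521466, minus strand): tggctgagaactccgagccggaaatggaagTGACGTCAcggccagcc
Zfp367 (chr13:64152441-64152508, minus strand): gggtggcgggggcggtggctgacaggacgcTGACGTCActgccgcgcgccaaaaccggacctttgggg
Zfp523 (chr17:28177104-28177171, plus strand): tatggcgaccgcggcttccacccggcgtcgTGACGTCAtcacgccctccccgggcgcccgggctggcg

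The remaining motifs were counted in the same way. AGGTCA, the core of ROR and REV-ERB sites, was in 16 members (17.2%, against 13.7% of the 6499 genes and 15.8% of all), and CTTCCGG, the core of ETS family sites, in 20 (21.5%, against 17.2% and 7.83%). The D-box TTATGTAA, read by DBP and E4BP4, was in none of the 93, against 0.646% of the 6499 genes and 0.977% of all. Of the 45 members with both a promoter sequence and a 24 h component, 3 held an E-box, 7 AGGTCA, 11 CTTCCGG and 2 the cAMP response element. The shares among other genes with a 24 h component were not counted, so these numbers stand without a comparison. These matches describe letters and not bound sites.

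The first question was how many members cycled and with which period. A gene was called rhythmic when Fisher's G-test and a cosine fit by the COSOPT principle both gave a Storey q-value under 0.05, with the period read from the cosine fit. By this rule 22 of the 111 members (19.8%) cycled with a period of about 24 h (20 to 30 h), 6 (5.41%) with about 12 h (10 to 14 h) and none with about 8 h (7 to 9 h). The same rule called 29.2%, 2.51% and 0.81% of the genes with a mean of 500 or more, and 14.2%, 1.13% and 0.385% of all genes. The 24 h share of the members lay below that of the genes that passed the same brightness limit. With Benjamini-Hochberg adjustment it was 16.2% (18 members), against 26.3% of the bright genes. Storey's method put the share of non-rhythmic probe sets at 78.3% for the G-test but 12.7% for the cosine fit. The q-value limit was therefore the more lenient of the 2 for the cosine fit. The 12 h count rested on 6 genes and fell to 3 (2.7%) after quantile normalization, against 2.1% of the bright genes, and to 3 with Benjamini-Hochberg adjustment, against 2.02%. Fitted periods of the 22 ran from 20.5 h to 28.1 h with a median of 24.25 h, and 5 of them were over 26 h.

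A harmonic model in limma, with cosine and sine terms of 24 h, 12 h and 8 h and a linear trend, tested each component on its own. A 24 h component (Benjamini-Hochberg adjusted p under 0.05 over all 45101 probe sets) was called in 55 members (49.5%), against 66.7% of genes with a mean of 500 or more and 52.7% of all genes. A 12 h component was called in 14 members (12.6%), against 15.6% and 7.13%, so that by this test the 12 h share of the members was below that of the bright genes. An 8 h component was called in 4 (3.6%), against 4.56% and 2.13%. All 22 members cycling at 24 h by both tests were among the 55, and 47 members had no component of any of these periods. Without CT60 to CT65 the 24 h component was called in 45 members (40.5%), against 57.9% of genes with a mean of 500 or more and 29.2% of all genes, and 39 of the 55 kept their call. Swings were small: among the 55, the median peak-to-trough ratio of the fitted curve was 1.34, the same as for the other genes of that brightness with the component, and only Zfp101 exceeded a ratio of 2.

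**Figure D1:**
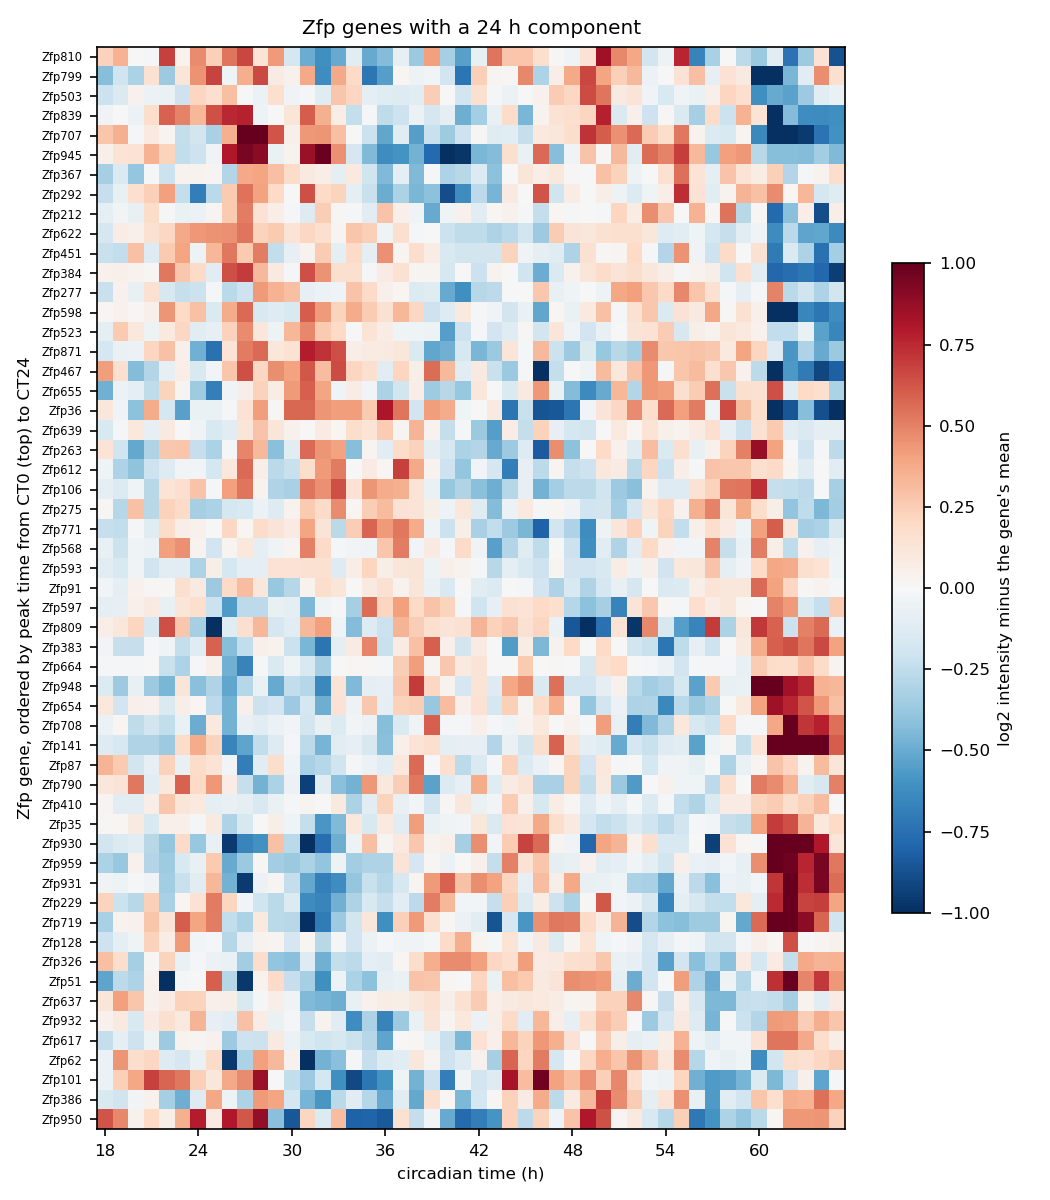
Log2 intensity of the 55 Zfp genes with a 24 h component (rows, ordered by fitted peak time from CT0 at the top) in the 48 hourly pools (columns, CT18 to CT65), minus each gene's mean; colours are capped at 1 in either direction. Rows at the top are high around CT26 to CT28, many rows in the lower part are high in CT61 to CT64, and Zfp101, near the bottom, is high around CT21 to CT28 and CT44 to CT51.

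Zfp101 had the smallest adjusted p of the 24 h component among the members. It ranged from 599 at CT34 through a median of 1102 to 2190.3 at CT46. The 12 pools within 3 h of the fitted peak lay between 1212 and 2190.3, and the 12 around the trough between 599 and 1089, so they did not overlap. The peak fell at CT23.4 ± 0.33 h (SE, 48 pools) with an amplitude of 0.55 ± 0.05 on the log2 scale, a ratio of 2.14 (limma adjusted p = 1.51e-10), and the cycles fitted alone peaked at CT23.5 and CT23.4. The windows were placed by the fit, so the absence of overlap describes the size of the swing and is no further test.

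Members with roles at the ribosome and on RNA were among the 12 with the smallest adjusted p. Zfp622, the ribosome biogenesis factor, ran from 8556 at CT65 through 13674 to 19268 at CT27 and peaked at CT4.58 ± 0.43 h with a ratio of 1.36 (limma adjusted p = 2.31e-09). Its peak and trough windows overlapped, with 3 trough pools above the lowest peak pool. Zfp326, a component of the complex that couples transcription elongation to splicing, went from 1716 at CT54 through 2503 to 3478 at CT41. It was high in the subjective night, with a peak at CT18.9 ± 0.49 h and a ratio of 1.5 (limma adjusted p = 4.87e-08).

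Zfp36, or tristetraprolin, which binds AU-rich elements and speeds the decay of cytokine mRNAs, varied from 1581 at CT61 through 4184 to 6829 at CT36. It peaked at CT8.4 ± 0.62 h with a ratio of 1.95 (limma adjusted p = 1.84e-05), with fitted peaks at CT9.89 and CT8.14 in the separate cycles and low values around CT46 to CT48 and CT61 to CT65. Zfp106, an RNA-binding protein needed for motor neuron and muscle integrity, ranged from 2491 at CT43 to 5795 at CT60 with a median of 3320. It peaked at CT9.54 ± 0.58 h with a ratio of 1.54 (limma adjusted p = 1.36e-05), but its G-test q of 0.0675 left it out of the 22.

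The other leading members split between morning and night. Zfp707 ranged from 708 at CT61 through 1710.5 to 4156 at CT27 and peaked at CT3.5 ± 0.48 h with a ratio of 1.96 (limma adjusted p = 5.18e-08). Zfp945 ranged from 583 at CT40 through 1423 to 2900 at CT32 and peaked at CT4.07 ± 0.63 h with a ratio of 1.97. Both were high in the early subjective day, and a second probe set of each peaked within 1.3 h of the first. Zfp931 was a night gene, from 2061 at CT27 through 3852 to 9408 at CT62, with a peak at CT18.1 ± 0.52 h and a ratio of 1.73. Zfp654 peaked at CT16.4 ± 0.68 h with a ratio of 1.46 and its highest value, 1755, at CT61. Zfp771, Zfp871 and Zfp277 peaked in the subjective day, at CT9.77, CT7.29 and CT5.48, with ratios of 1.5, 1.52 and 1.33. For Zfp277, a partner of Polycomb proteins, the separate cycles peaked at CT8.37 and CT4.63, and for Zfp871 at CT5.48 and CT5.00.

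**Figure D2:**
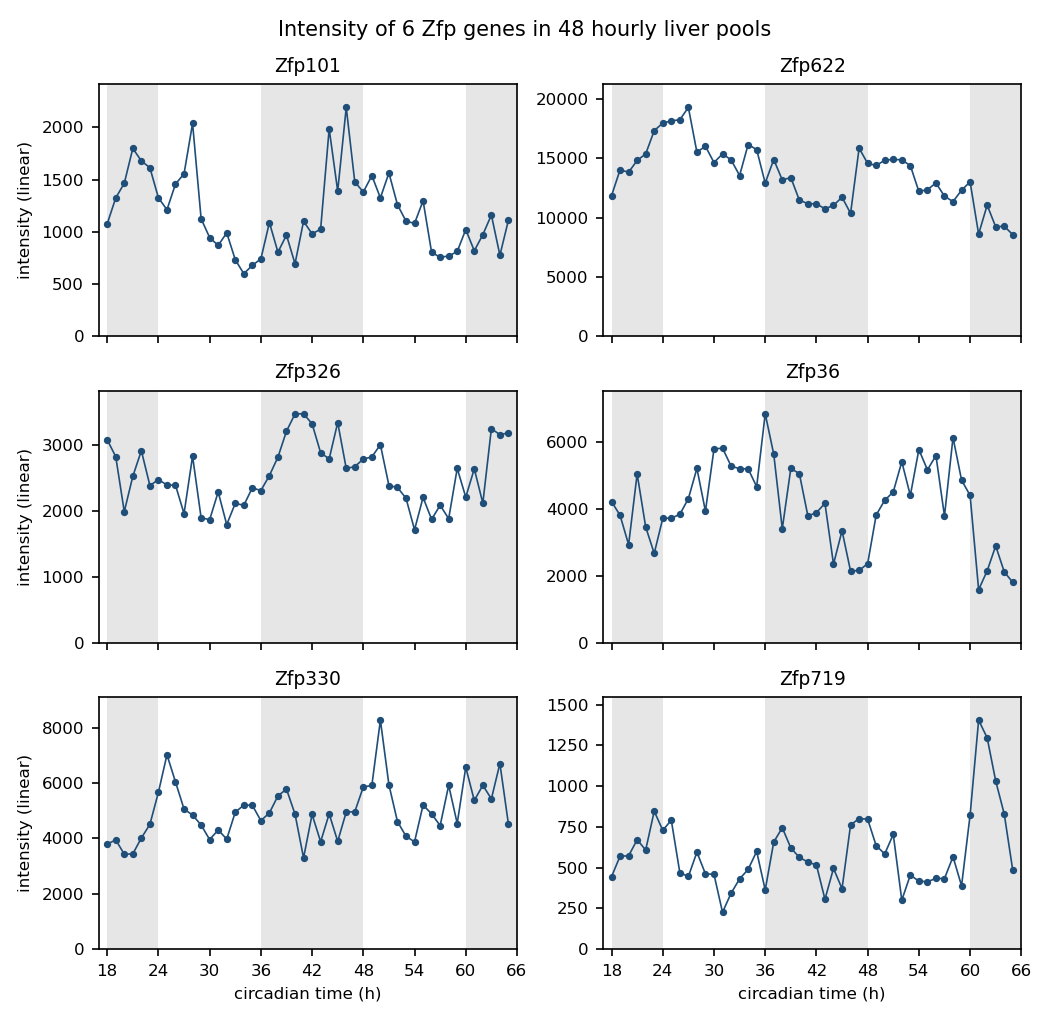
Linear intensity (vertical axes, from 0) against circadian time (h) for 6 Zfp genes in the 48 hourly liver pools, 1 point per pool; grey bands mark the subjective night. Zfp101 peaks near CT23.4, Zfp622 near CT4.58, Zfp326 near CT18.9 and Zfp36 near CT8.4, while Zfp330 and Zfp719 have 12 h components, and Zfp719 has its highest value, 1405, at CT61.

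Called at 24 h by both tests with a peak in the subjective day, in order of peak time, were Zfp810, Zfp839, Zfp707, Zfp945, Zfp367, Zfp622, Zfp384, Zfp277, Zfp523, Zfp871, Zfp36, Zfp612, Zfp771 and Zfp593. Those with a peak in the night were Zfp664, Zfp948, Zfp654, Zfp931, Zfp229, Zfp326, Zfp637 and Zfp101. Their ratios ran from 1.2 to 2.14.

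The peak times of the 55 covered the whole day. Of these, 13 peaked between CT0 and CT6, 14 between CT6 and CT12, 15 between CT12 and CT18 and 13 between CT18 and CT24, so that 28 (50.9%) peaked in the subjective night. Among the 5271 genes with a mean of 500 or more and the component, 29%, 33.9%, 19.1% and 18.1% fell into these 6 h windows. Of these genes 37.2% peaked in the night, against 61.3% of the 9597 genes of any level with the component. The night count of the members also moved with scaling, to 36 of 55 after quantile normalization. The contrast with the bright genes was not kept without the last pools. Without CT60 to CT65, 15 of the 45 members with the component (33.3%) peaked in the night. Of the bright genes with it 41.5% did so, and of all genes with it 44.7%. Among the 22 members called by both tests, 8 (36.4%) peaked in the night, against 35.9% of bright genes called in the same way.

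**Figure D3:**
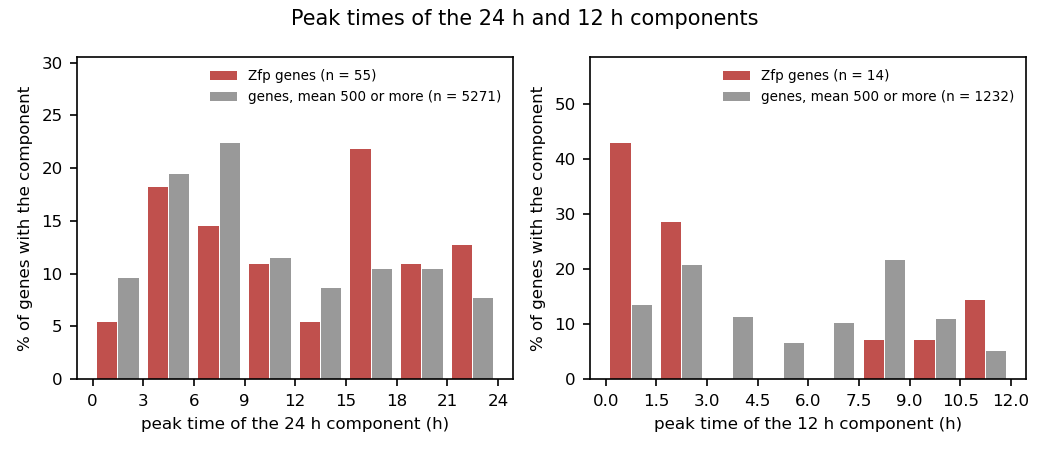
Share of genes by fitted peak time (h) for the 24 h component (left, 3 h bins) and the 12 h component (right, 1.5 h bins); red bars are Zfp genes with the component (55 and 14), grey bars are all genes with a mean of 500 or more that have it (5271 and 1232). The Zfp genes are spread over the 24 h day with 12 in the bin from CT15 to CT18, and 10 of 14 peak in the first 3 h of the 12 h period.

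Members with a known role, partner or target made up a further group. Zfp809, which silences retroviruses through their primer binding site, ranged from 2637 at CT25 through 6537 to 9772 at CT60, with a peak at CT14.8 ± 1.14 h and a ratio of 1.49 (limma adjusted p = 0.0185). Zfp568, a repressor of a placental Igf2 promoter, peaked at CT10.5 ± 1.03 h with a ratio of 1.26 (limma adjusted p = 0.0179), but at CT1.37 and CT9.77 in the separate cycles. Zfp410, an activator of Chd4, peaked at CT17.5 with a ratio of 1.12, and Chd4 itself, the remodelling ATPase, at CT4.78 (limma adjusted p = 0.037 and 0.000649). A further bright probe set of Zfp410 had no 24 h component (limma adjusted p = 0.119) and a fitted peak at CT1.11. Zfp451, a SUMO ligase, peaked at CT5.26 and Zfp91 at CT12.1, with ratios of 1.22 and 1.19 (limma adjusted p = 0.0459 and 0.0162). A further bright probe set of Zfp91 had the component, with a peak at CT13.6, and another did not (limma adjusted p = 0.0863). The calls of Zfp809, Zfp410, Zfp451 and Zfp91 were lost without CT60 to CT65. For Zfp445, Zfp148, Zfp207, Zfp638, a splicing cofactor, and Zfp830, a spliceosome-associated protein, no 24 h component was detected (limma adjusted p from 0.115 to 0.549). A further bright probe set of Zfp445 did have the component, with a peak at CT15.6 (limma adjusted p = 0.0263), and another did not (limma adjusted p = 0.548). Zfp598, the ubiquitin ligase that senses collided ribosomes, ranged from 1284 at CT62 through 3160.4 to 4654 at CT31 with a peak at CT6.03 and a ratio of 1.37 (limma adjusted p = 0.00621).

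Rhythms with a period near 12 h were found in Zfp330, Zfp800, Zfp719, Zfp383, Zfp266 and Zfp770 by both tests, and each of the 6 also had a 12 h component in limma. Zfp330, a nucleolar zinc finger protein, had the smallest adjusted p. It ranged from 3297 at CT41 through 4886 to 8276 at CT50, and its next highest values were 7024 at CT25, 6707 at CT64 and 6572 at CT60. Around the fitted peak between CT36 and CT39 it reached 5783. Its peak fell 1.23 ± 0.26 h after CT0 and CT12, with a ratio of 1.44 (limma adjusted p = 1.33e-05) and a fitted period of 11.8 h. The 12 pools within 1.5 h of a peak had a median of 5888 and the 12 around a trough of 3967, with overlapping ranges.

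The other 12 h genes peaked at nearly the same hours. Zfp800 ranged from 1283 at CT54 through 1923 to 3659 at CT62 and peaked at 1.28 ± 0.32 h with a ratio of 1.46 (limma adjusted p = 0.000312). Zfp719 ranged from 226 at CT31 through 565 to 1405 at CT61 and peaked at 0.98 ± 0.33 h with the largest ratio of the 6, 1.82 (limma adjusted p = 0.000471). Zfp383, Zfp266 and Zfp770 peaked at 1.65, 1.92 and 2.03 h with ratios of 1.41, 1.36 and 1.23 (limma adjusted p = 0.0044, 0.00585 and 0.00805). These 3 genes lost the 12 h component without CT60 to CT65, at adjusted p of 0.0524, 0.107 and 0.0687, while Zfp330, Zfp800 and Zfp719 kept it. Fitted to each cycle alone, Zfp330 peaked at 1.54 and 1.47 h and Zfp800 at 1.44 and 1.07 h.

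Of the 14 members with a 12 h component, 10 peaked between 0 and 3 h after CT0 and CT12, none between 3 and 6 h, 1 between 6 and 9 h and 3 between 9 and 12 h. Among 1232 genes with a mean of 500 or more and the component, the shares were 34.3%, 17.9%, 31.8% and 16%. Zfp622 had a 12 h component (peak at 0.73 h, limma adjusted p = 0.00124) beside the 24 h rhythm, which was lost in a fit with no trend (limma adjusted p = 0.338) and was not called in its 2 further bright probe sets (limma adjusted p = 0.986 and 0.366). A 12 h component beside the 24 h rhythm was also called in Zfp871, which peaked at 8.45 h (limma adjusted p = 0.00894). Zfp110, a p75 neurotrophin receptor partner, had a 12 h component with a peak at 0.26 h (limma adjusted p = 0.00234), and both its other bright probe sets showed the component, at 0.35 and 0.43 h. Over all 14, however, 5 of 13 further bright probe sets had the component: both of Zfp110, both of Zfp871 and 1 of 2 of Zfp800, but none of Zfp622, Zfp106 or Zfp24. Without CT60 to CT65 a 12 h component was called in 8 members (7.21%), against 12.9% of the bright genes, and these were 7 of the 14 and Zfp655.

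No member was called with an 8 h period by both tests. At an unadjusted p under 0.05 in both, 2 members (1.8%) had an 8 h period, against 2.08% of the bright genes, and limma called an 8 h component in Zfp277, Zfp110, Zfp281 and Zfp869. Zfp281, a regulator of pluripotency genes, ranged from 3575 at CT43 through 4567 to 6612 at CT37 and had a fitted period of 8.1 h, with a ratio of 1.22 (limma adjusted p = 0.0352) but a G-test q of 0.113. The ratios of the other 3 were 1.25, 1.22 and 1.24 (limma adjusted p = 0.0231, 0.0244 and 0.0384). Removing a single pool ended the call of Zfp281 in 10 of 48 fits, up to an adjusted p of 0.0688 without CT21, and that of Zfp869 in 17, up to 0.0699 without CT62. Without CT60 to CT65 the calls of Zfp110 and Zfp869 were lost (limma adjusted p = 0.0776 and 0.0732), and after quantile normalization those of Zfp277 and Zfp281 (limma adjusted p = 0.13 and 0.148), so that each of the 4 was lost under some alternative.

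The last pools held many of the highest values of the members. A limma contrast, added after the data were seen, compared CT60 to CT65 with the same hours a day earlier, CT36 to CT41, with the hour as a block. It called 41 members higher (36.9%) and 14 lower (12.6%). Of the genes with a mean of 500 or more, 14.1% were higher and 35.1% lower. Over all genes the shares were 33.2% and 16.3%, near those of the members. The median difference was 0.14 on the log2 scale for the members, -0.15 for the bright genes and 0.04 for all genes. Quantile normalization moved the median of the bright genes to 0.00 and that of the members to 0.32. It then called 45 members higher (40.5%) and 3 lower (2.7%). The shares were 16.9% and 15.7% of bright genes and 8.17% and 8.4% of all genes. Under both scalings 39 members were higher. Leaving out a pair of pools of the same hour gave 20 to 33 higher members, against 8.05% to 12.9% of bright genes. The count was lowest, 20, without CT40 and CT64, and under 27 without CT36, CT37, CT38 or CT41 and their partners as well. Marker lists were read in the same windows. Summed intensities of the 6 Kupffer markers were 53435 to 69857 in CT36 to CT41 and 43526 to 61372 in CT60 to CT65, of 4 lymphocyte markers 2154 to 3497 and 1966 to 3300, and of 6 hepatocyte markers 3704940 to 3859950 and 3825210 to 4014480. Of the 6 endothelial markers 1 was called higher and 4 lower, with sums of 25636 to 28722 and 26640 to 29555, and their part in the result was not tested. The 75th percentile of the arrays was 938 to 1029 in the former and 797 to 945 in the latter, and its part in the result was not tested.

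**Figure D4:**
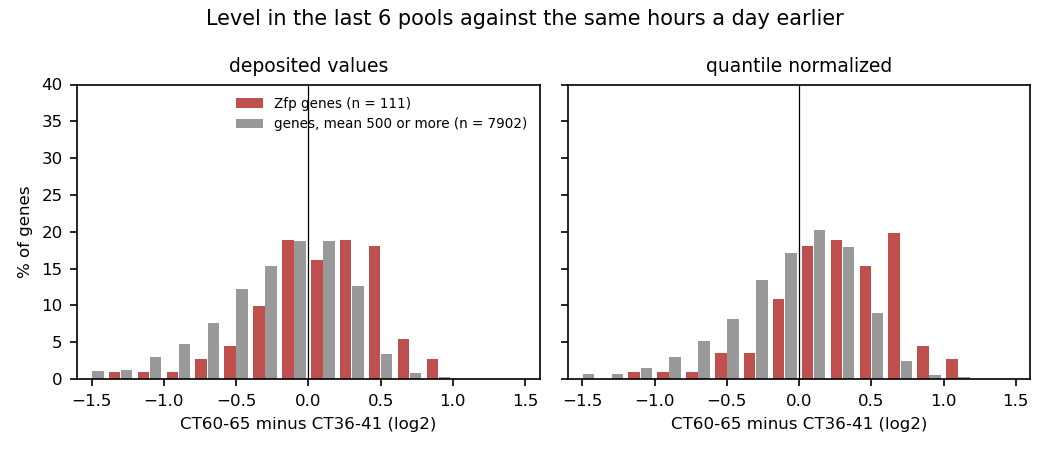
Distribution of the log2 difference between the mean of CT60 to CT65 and the mean of CT36 to CT41 (0.2-wide bins, values past the ends in the end bins), as deposited (left) and after quantile normalization (right); red bars are the 111 Zfp genes, grey bars the 7902 genes with a mean of 500 or more. The Zfp genes lie to the right of the grey bars on both scales, with medians of 0.14 and 0.32 against -0.15 and 0.00.

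Zfp141 showed the largest rise. Its 6 values in CT36 to CT41 lay between 736 and 1104 and those in CT60 to CT65 between 1083 and 2224, a difference of 0.92 ± 0.09 (SE) on the log2 scale (limma adjusted p = 0.00567). Zfp959 went from 907 to 1230 up to 1549 to 2361 (0.86 ± 0.08, limma adjusted p = 0.00502), with no overlap. Zfp638 went from 2515 to 3375 up to 4200.5 to 5350.5, also without overlap (0.65 ± 0.05, limma adjusted p = 0.00378). In the opposite direction, Zfp574 fell from 2786 to 4550 down to 1049 to 1995 (-1.36 ± 0.16, limma adjusted p = 0.00738) and Zfp36 from a mean of 4979 to 2487 (-1.05 ± 0.17, limma adjusted p = 0.0119), with overlapping ranges.

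In an interaction test the 24 h component itself differed between CT18 to CT41 and CT42 to CT65 in 4 members, against 13.9% of genes with a mean of 500 or more and 6.55% of all genes. These were Zfp638, Zfp574, Zfp959 and Zfp141, all of which had a larger amplitude in the later cycle.

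Zfp genes that neighbour each other were considered apart, by a rule chosen after earlier results were known: another Zfp gene among the nearest 2 protein-coding genes on either side in RefSeq (GRCm38.p6). There were 58 members with such a neighbour and 53 without, and chromosomes 7 and 17 together held 40 of the 111. The share with a 24 h component was alike, 29 of 58 (50%) and 26 of 53 (49.1%). The peak times differed, with 19 of 29 in the subjective night among members with a neighbour and 9 of 26 among those without. The numbers fell to 11 of 23 and 4 of 22 without CT60 to CT65. In those last pools 25 of the 58 were called higher and 4 lower, and of the 53 without a neighbour 16 were higher and 10 lower; after quantile normalization 27 and 18 were higher. These are counts, and no test of the differences was made.

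The divergent pairs whose promoters are printed above are described together for that reason. Zfp943 ranged from 2237 at CT42 through 2952 to 5047 at CT61, and Zfp942 from 2633 at CT22 through 3858 to 5974 at CT65. Zfp758 ranged from 1161 at CT43 through 1668 to 3000.5 at CT61, and Zfp944 from 1272 at CT18 through 1940.2 to 3122 at CT61. None of the 4 had a 24 h component (limma adjusted p from 0.333 to 0.998) although all hold the E-box. All 4 were higher in CT60 to CT65 than in CT36 to CT41, by 0.61 ± 0.04, 0.54 ± 0.07, 0.41 ± 0.13 and 0.48 ± 0.07 on the log2 scale in that order (limma adjusted p = 0.00272, 0.00944, 0.0416 and 0.0105).

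**Figure D5:**
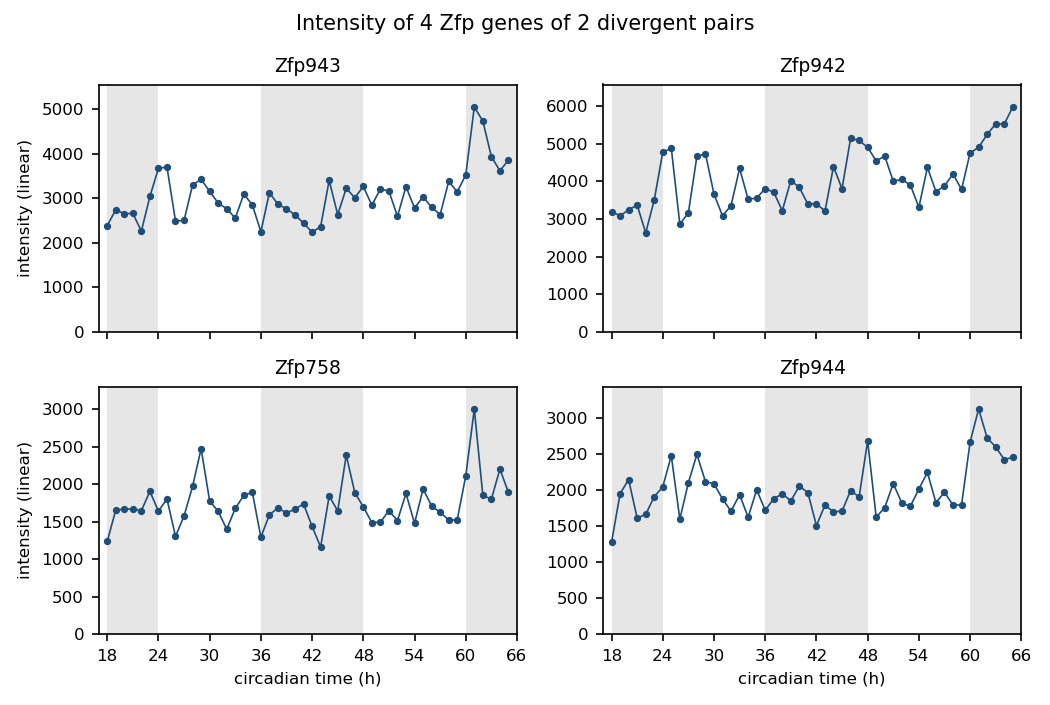
Linear intensity (vertical axes, from 0) against circadian time (h) for Zfp943, Zfp942, Zfp758 and Zfp944 in the 48 hourly liver pools, 1 point per pool, with the subjective night in grey. All 4 reach their highest value between CT61 and CT65, and none had a 24 h component.

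Other groups of factors were set beside the members. Of the 193 Zfp genes under a mean of 500, 3 (1.55%) cycled at 24 h by both tests, against 14.2% of all genes. A 24 h component was called in 55 of the 193 (28.5%), against 52.7% of all genes. Of these 55, 43 (78.2%) peaked in the subjective night, against 61.3% of all genes with the component. The median ratio over the 55 was 1.07. Without CT60 to CT65 the component was called in 14 (7.25%), against 29.2% of all genes, and 6 of the 14 peaked in the night. Of 18 Zbtb genes with a mean of 500 or more, which carry a BTB domain beside their fingers, 2 cycled at 24 h by both tests. A 24 h component was called in 7 of them, and in 6 without CT60 to CT65. Of 7 Klf genes, zinc finger regulators of metabolism, 5 cycled at 24 h by both tests and 6 had the component. Both tests called 29.2% of the bright genes at 24 h, and 66.7% of them had the component. In the contrast of CT60 to CT65 with CT36 to CT41, 7 Klf genes were lower on the deposited values and 5 after quantile normalization. The shares of bright genes were 35.1% and 15.7%. Of the 193 dimmer Zfp genes, 67 (34.7%) were higher and 2 (1.04%) lower on the deposited values, against 33.2% and 16.3% of all genes. After quantile normalization 7 of them were higher and 6 lower. Of the Zbtb genes 3 were higher and 2 lower on the deposited values, and 3 and 0 after quantile normalization. Cofactors of KRAB proteins, a list of 25 genes of which 23 were measured, had a 24 h component in 12 (52.2%). The shares were 66.7% of the bright genes and 52.7% of all genes. Of these cofactors 9 peaked in the subjective day and 3 (25%) in the night, against 37.2% and 61.3% in the night. Without CT60 to CT65, 10 cofactors had the component, 2 of them with a night peak. In the contrast with CT36 to CT41, 3 cofactors were higher and 9 lower on the deposited values, and 5 and 5 after quantile normalization. By both tests 7 cofactors (30.4%) cycled at 24 h, against 29.2% of the bright genes and 14.2% of all genes. Among the cofactors with a 24 h component, Morc3 had the smallest adjusted p (limma adjusted p = 4.78e-10). It peaked in the night, at CT13.8 ± 0.37 h. Trim28, the KRAB corepressor, peaked at CT5.55 ± 1.09 h (limma adjusted p = 0.00936) but had a G-test q of 0.325. Setdb1 peaked at CT2.77 ± 0.82 h (limma adjusted p = 0.00116) and Daxx, a histone chaperone, at CT4.22 ± 0.68 h (limma adjusted p = 3.17e-05). A 12 h component was called in Mphosph8, a subunit of the HUSH silencing complex, in the deacetylases Hdac1 and Hdac2 and in Cbx1, an HP1 protein. Their peaks fell from 1.19 to 2.77 h, in the same 3 h window as 10 of the 14 members and 34.3% of bright genes with the component. These 4 were 17.4% of the cofactors, against 15.6% of the bright genes and 7.13% of all genes. Without CT60 to CT65 a 12 h component was called in 3 cofactors.

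Probe sets limit these readings. Of the 111 members, 41 had a single probe set, and 7 were read by a probe set of the type whose probes may also match other transcripts, among them Zfp622, Zfp931, Zfp771 and Zfp593, which all had a 24 h component. A further 6 were read by a probe set of the type shared by several transcripts. For 15 of the 55 members with a 24 h component, 21 further probe sets had a mean of 500 or more. Of these 11 had the component themselves and 16 peaked within 3 h of the brightest probe set. Zfp707, Zfp945 and Zfp871 repeated their rhythm in every further bright probe set, whereas for Zfp106 a dimmer probe set peaked 7.25 h later and for Zfp622 1 of 2 further sets had no 24 h component (limma adjusted p = 0.0637).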

How the data were processed

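The authors hybridized RNA of each pool to an Affymetrix Mouse Genome 430 2.0 array. Each deposited file gives 1 intensity per probe set, not log transformed. The study's methods name GCRMA for extraction, and the submitters' processing notes name MAS5; which of them made these values is not settled. Members and lists were chosen with earlier results of these data known. Values were log2 transformed. Fisher's G-test and cosine fits (periods 4 to 30 h in steps of 0.1 h, 1000 scramblings per probe set) were run in Python 3.11.15 (numpy 2.4.6, scipy 1.17.1) on all 45101 probe sets with Storey q-values, and limma 3.58.1 (R 4.3.3) fitted the harmonic model with Benjamini-Hochberg adjustment. Ratios are 2 to the power of 2 amplitudes. Scripts were tested on simulated data. The number of arrays, 48, limits the precision. Genes were named from the platform annotation by their brightest probe set. Named members were the 12 smallest adjusted p of the 24 h component, all 12 h genes and the 4 smallest adjusted p of the 12 h and 8 h components, the 6 brightest, the 3 on either side of the limit, genes with known roles or partners, and those differing between cycles. The divergent pairs, the full list of 24 h members called by both tests, Zfp593 and Zfp655 fall outside that rule and were chosen after their values were seen. Alternatives covered scaling, trend, thresholds, filters, probe sets, time windows and single pools.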

Additional observations from a re-analysis of the deposited data

Results flagged for a closer look

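The 24 h component differed between CT18 to CT41 and CT42 to CT65 in 4 members by the interaction test in limma. For Zfp638 the adjusted p was 0.00897, with amplitudes of 0.05 and 0.19 on the log2 scale. For Zfp574 it was 0.026, with 0.03 and 0.39. For Zfp959 it was 0.0331, with 0.12 and 0.34, and for Zfp141 it was 0.0409, with 0.15 and 0.42. All 4 also changed in level between CT36 to CT41 and CT60 to CT65, the pools in which the arrays had the lower 75th percentile. The part of those pools in the difference was not tested.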

How the results depend on the processing

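The count of members cycling at 24 h by both tests was 11 at a q-value under 0.01. The count at 12 h by both tests was 3 with Benjamini-Hochberg adjustment, 2 at a q-value under 0.01 and 3 after quantile normalization. The count at 8 h by both tests was 1 at a q-value under 0.1, 2 over probe sets with a mean of 100 or more and 2 when any probe set of a gene was allowed. The count of 8 h components was 2 after quantile normalization, 9 over probe sets with a mean of 100 or more, 8 with any probe set, 7 with a trend of degree 2 and 2 without CT60 to CT65. Without those pools there were also 8 members with a 12 h component and 15 night peaks. With the limit at 1000 there were 17 night peaks. CT18 to CT41 alone gave 13, 1 and 0 members with a 24 h, 12 h and 8 h component and 4 night peaks. CT42 to CT65 alone, which holds the last 6 pools, gave 39, 2 and 0 members and 22 night peaks. Both fits have 24 pools, so the 24 h counts differed between cycles at the same number of pools. Members lower in CT60 to CT65 numbered 3 after quantile normalization. Leaving out single pools gave 50 to 58 members with a 24 h component, 13 to 16 with 12 h, 2 to 6 with 8 h (2 without CT21, CT24 or CT57) and 23 to 31 night peaks, and leaving out pairs of an hour gave 20 to 33 higher and 7 to 15 lower in CT60 to CT65. The other alternatives kept each count within 1.5 times. Among named members, the 12 h component of Zfp622 was lost with no trend (adjusted p = 0.338), and the 8 h components of Zfp277 and Zfp281 after quantile normalization (adjusted p = 0.13 and 0.148). No 24 h call of the 12 members with the smallest adjusted p was lost when single pools or CT60 to CT65 were left out. The cause of these changes was not tested.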
